A study of Homo sapiens with 6 samples.

Results

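The expression of 9 long noncoding RNA (lncRNA) genes was followed in the RNA-seq libraries. SIRLNT was included because its read count differed between the groups in these same libraries, so its values are given as a description with no test. The other 8, MALAT1, NEAT1, KCNQ1OT1, MEG3, H19, TUG1, NORAD and MIAT, were included because they are well-known lncRNAs, and they were matched by symbol and Ensembl identifier. These 9 genes were among 55767 genes with a symbol, and 8 of the 9 had the minimum of 10 reads in total over the 6 libraries. The exception was MEG3.

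The libraries came from HEK293T, an established human embryonic kidney line that carries the SV40 large T antigen. Of these, 3 libraries were from cells with a control shRNA (sh-control) and 3 from cells with an shRNA targeting RREB1 (sh-RREB1), a zinc finger transcription factor. All cells were grown in DMEM with 10% FBS, and all libraries were made from total RNA with a stranded kit, which keeps transcripts that lack a poly(A) tail. Per the study's methods, the shRNAs came from a lentiviral vector and stable lines were selected with neomycin. The labels do not give the targeting sequence, and do not say whether the 3 libraries of a group came from separate cultures, so p-values measure only the spread between these libraries, which may be technical.

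LncRNAs are transcripts without a long open reading frame that act as RNA. MALAT1 and NEAT1 stay in the nucleus, where MALAT1 gathers in nuclear speckles that hold splicing factors and NEAT1 builds paraspeckles. KCNQ1OT1, H19 and MEG3 are imprinted, that is, made from the copy inherited from one parent, and lie in clusters of imprinted genes. NORAD is cytoplasmic and binds Pumilio proteins, which repress mRNAs carrying their recognition motif. TUG1 starts head to head with MORC2, MIAT is known from neurons and heart, and SIRLNT takes its name from the deacetylase SIRT1.

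The libraries held 12257054 to 33044061 reads assigned to genes on the annotated strand. A pair of libraries stood apart. In sh-RREB1 replicate 3, 52.1% of the reads tallied mapped to several places, against 3.66% to 7.63% in the others, and its total on genes was the lowest. In sh-control replicate 1, GC-rich genes were low, and the expressed genes within 1 percentage point of the GC content of H19 had a median 1.27 log2 units under their 6-library mean. RREB1 itself was measured at 27.1, 25.2 and 26.6 CPM (counts scaled to a common library size) in sh-control and at 23.7, 24.6 and 23.2 CPM in sh-RREB1. The sh-RREB1 libraries were all lower, but the log2 fold change of -0.14 (SE 0.13) did not pass the test (edgeR quasi-likelihood, adjusted p = 0.486). With a trend on GC content and length removed, RREB1 was at -0.36 (SE 0.12, edgeR adjusted p = 0.0524). Over 18 alternative fits it stayed below 0, from -0.37 to -0.06. The study reports that its shRNA lowered RREB1 mRNA and protein in HEK293 cells. The groups are therefore called the libraries labelled sh-RREB1 and sh-control, and directions rest on those labels.

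Of 10 genes listed as HEK293 markers, the pair of kidney lineage factors PAX2 and PAX8 was at or near 0 (at most 0.476 CPM), and VIM, KRT18 and NEFL were present. The summed level of the list was 492 to 550 CPM in sh-control and 818 to 924 CPM in sh-RREB1, and EYA1, a developmental coactivator, was the 1 called by edgeR among 9 tested, against 3.41% of all genes, where a call required an adjusted p below 0.01 and a change beyond 1 on the log2 scale (9.62 ± 0.622 against 34.3 ± 1.43 CPM, SD, n = 3), a call lost without sh-control replicate 2 (edgeR adjusted p = 0.0193) or sh-RREB1 replicate 3 (0.0116). Of the 9, 6 had an unadjusted p under 0.05, against 34.4% of all genes, and 3 had an adjusted p under 0.01: EYA1, NEFL (25.2 ± 1.40 and 46.9 ± 0.696 CPM) and VIM, which held most of the sum (340 ± 17.3 and 572 ± 43.0 CPM). The summed level of 11 markers of blood, liver, fibroblast, endothelial, muscle and glial cells was 4.96 to 6.61 CPM in sh-control and 4.44 to 13.0 CPM in sh-RREB1, with CD3E at 0 in every library. Of these, 6 were tested, with 0 called by edgeR and 1 by DESeq2 (COL1A1), against 3.41% and 7.07% of all genes. At an unadjusted p under 0.05 there were 2, against 34.4% of all genes. The part of either shift in the values below was not tested. In bulk libraries, fewer cells of a type and less RNA per cell cannot be told apart.

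The sequence of NORAD holds the motif for which the RNA is best known, and the sites are shown because the gene was well covered in these libraries. NORAD lies on chromosome 20 from 36045618 to 36051018 on the minus strand (GRCh38) as a single exon of 5401 bases. The Pumilio motif TGTANATA was searched on the sense strand and found 15 times, as TGTATATA at 10 sites, TGTAAATA at 4 and TGTACATA at 1. Each site below is a 20-base window read 5′ to 3′ from GRCh38 with the motif in capitals, and adjacent windows overlap where sites are close.
NORAD site 1, chr20:36050187-36050206, minus strand: ggcctgTGTATATAatatga
NORAD site 2, chr20:36049808-36049827, minus strand: ctactgTGTATATAgttgac
NORAD site 3, chr20:36049707-36049726, minus strand: acatttTGTAAATAcctttt
NORAD site 4, chr20:36049506-36049525, minus strand: tatctgTGTATATAgtgtac
NORAD site 5, chr20:36049497-36049516, minus strand: atatagTGTACATAaaggac
NORAD site 6, chr20:36049123-36049142, minus strand: ccacttTGTAAATAtctttt
NORAD site 7, chr20:36048909-36048928, minus strand: ttgctcTGTATATAgtatat
NORAD site 8, chr20:36048482-36048501, minus strand: acacttTGTAAATAgctttt
NORAD site 9, chr20:36048309-36048328, minus strand: ctatacTGTATATAttgtat
NORAD site 10, chr20:36048300-36048319, minus strand: atatatTGTATATAtaacgg
NORAD site 11, chr20:36047976-36047995, minus strand: ctactgTGTATATAgcggac
NORAD site 12, chr20:36047673-36047692, minus strand: gtgctgTGTATATAgtgtat
NORAD site 13, chr20:36047664-36047683, minus strand: atatagTGTATATAagcgga
NORAD site 14, chr20:36047355-36047374, minus strand: ctactgTGTATATAatggaa
NORAD site 15, chr20:36046349-36046368, minus strand: cctattTGTAAATAcctttg
Over the exons of the genes tested, 30.7% held at least 1 such motif, and 9 genes, NORAD included, held 15 or more. Among 1807 tested genes with 5000 to 6000 exonic bases, 38.7% held the motif, the median was 0, and another gene held 16. Of the other members, KCNQ1OT1 held 9 over a far longer RNA, NEAT1 6, TUG1 3 and MEG3 1, and SIRLNT, MALAT1, H19 and MIAT held 0. A match describes letters only.

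The promoters of MALAT1, MEG3 and MIAT are shown because these genes stood at the top, at 0 and near the bottom of the levels given below. Each is the RefSeq window of 300 bases around a transcript start (GRCh38.p14), printed 5′ to 3′ on the strand of the gene, with every CG dinucleotide in capitals.
MALAT1, chr11:65497488-65497787, plus strand: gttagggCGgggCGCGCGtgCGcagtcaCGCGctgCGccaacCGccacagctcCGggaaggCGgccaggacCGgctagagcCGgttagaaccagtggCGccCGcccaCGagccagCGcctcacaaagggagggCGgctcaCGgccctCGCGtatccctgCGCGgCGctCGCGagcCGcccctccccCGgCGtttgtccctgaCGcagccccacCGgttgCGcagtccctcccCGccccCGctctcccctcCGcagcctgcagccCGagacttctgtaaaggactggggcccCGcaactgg
MEG3, chr14:100825858-100826157, plus strand: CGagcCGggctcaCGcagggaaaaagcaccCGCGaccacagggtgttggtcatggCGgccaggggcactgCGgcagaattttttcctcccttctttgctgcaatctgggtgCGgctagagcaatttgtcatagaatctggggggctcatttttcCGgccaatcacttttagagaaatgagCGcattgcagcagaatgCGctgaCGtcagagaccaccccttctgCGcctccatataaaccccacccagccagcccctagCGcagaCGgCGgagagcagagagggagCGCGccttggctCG
MIAT, chr22:26646179-26646478, plus strand: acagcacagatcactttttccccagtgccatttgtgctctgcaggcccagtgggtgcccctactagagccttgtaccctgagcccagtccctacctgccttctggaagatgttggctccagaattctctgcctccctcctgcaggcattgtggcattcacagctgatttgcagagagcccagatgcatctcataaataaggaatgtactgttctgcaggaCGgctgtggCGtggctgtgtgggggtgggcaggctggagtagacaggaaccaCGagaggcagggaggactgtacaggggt
The RefSeq start of MEG3 lies inside the longer Gencode gene. The first window of MALAT1 held 37 CG dinucleotides and was 73.7% G and C, and its second annotated window held 14. The MEG3 windows held 17 to 19, TUG1 28, NORAD 23, H19 6 and MIAT 3. The median over 35116 such promoters was 14 CG dinucleotides and 58.7% GC, and every promoter was searched the same way. MEG3, at 0 reads, thus had more CG dinucleotides in its window than MIAT or H19. Windows of NEAT1, KCNQ1OT1 and SIRLNT were not analysed here.

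H19 also carries a microRNA in an exon, miR-675, whose mature RNAs are shown with the seed, bases 2 to 8, in capitals (RefSeq, GRCh38.p14, minus strand). Libraries of total RNA made this way do not measure mature microRNAs.
hsa-miR-675-5p, chr11:1996800-1996822: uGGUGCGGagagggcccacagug
hsa-miR-675-3p, chr11:1996768-1996787: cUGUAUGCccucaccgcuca

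Per kilobase of exon, the order of the members was MALAT1, NORAD, TUG1, NEAT1, KCNQ1OT1, SIRLNT, MIAT, H19 and MEG3. The mean level over the 6 libraries was 162 CPM per kb for MALAT1, 63.1 for NORAD, 24.3 for TUG1, 4.73 for NEAT1 and 2.05 for KCNQ1OT1. The ranges over the 6 libraries did not overlap among the first 5, at 117 to 275 for MALAT1, 50.6 to 72.8 for NORAD, 19.5 to 27.7 for TUG1 and 3.71 to 6.32 CPM per kb for NEAT1. MALAT1 alone took 0.119% to 0.283% of all reads on genes, and its level was above that of 99.3% of the genes tested.

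Pooled over both groups, the ranges of KCNQ1OT1 and SIRLNT, of SIRLNT and MIAT, and of MIAT and H19 overlapped. KCNQ1OT1 ranged from 1.68 to 2.57 CPM per kb, SIRLNT from 0.0186 to 1.86, MIAT from 0.226 to 0.318 and H19 from 0.0744 to 0.298. By group means, SIRLNT was the only member whose place depended on the group, since its sh-control libraries (0.0314 ± 0.0127 CPM per kb, SD, n = 3) were below all MIAT and H19 values and its sh-RREB1 libraries (1.75 ± 0.153) above them. Lengths were the exons joined over all annotated transcripts. With the longest transcript in their place the level was 33.0 CPM per kb for TUG1, 0.446 for MIAT and 1.90 for SIRLNT.

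**Figure D1:**
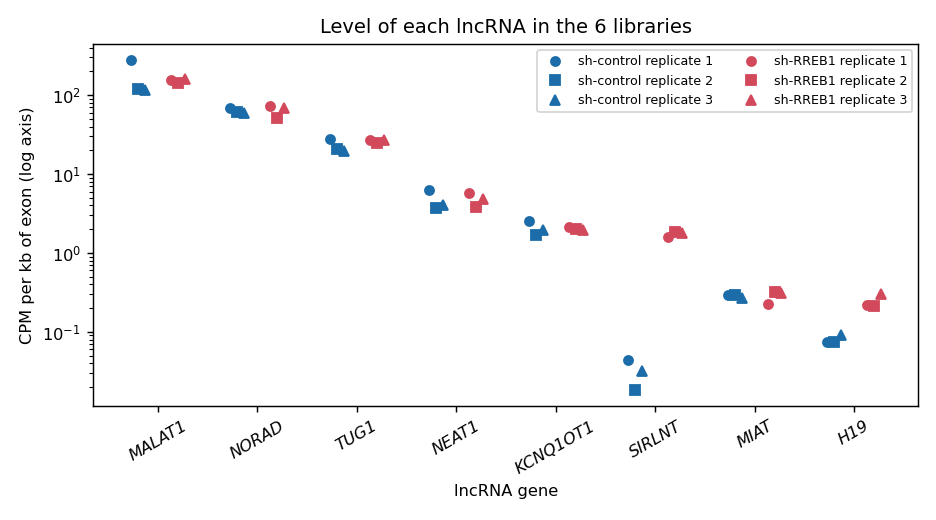
Level of 8 lncRNA genes in the 6 libraries, as CPM per kb of exon on a log axis, blue for sh-control and red for sh-RREB1, with a symbol for each replicate number; MEG3, at 0 reads, is not drawn. SIRLNT runs from 0.0186 to 1.86 CPM per kb with the groups far apart, the H19 groups are apart by less, and the groups of the other 6 genes overlap.

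SIRLNT (ENSG00000253802) lies on chromosome 8 from 40298697 to 40353133 on the minus strand (GRCh38), with 1974 exonic bases in 8 blocks that overlap no exon of another gene on either strand. It had 2, 1 and 2 reads in sh-control replicates 1, 2 and 3, and the sh-RREB1 libraries had 77, 96 and 45. These are 0.0870, 0.0368 and 0.0623 CPM against 3.10, 3.67 and 3.57 CPM. The RNA was thus at the limit of counting in all sh-control libraries and at a low but even level in all sh-RREB1 libraries, including replicate 3 with its few reads.

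SIRLNT was listed because its reads differed between these groups, so its values below describe these libraries and carry no test. It reached the minimum read total only through its sh-RREB1 libraries. As a ratio of pooled reads per effective library size, 218 reads against 5 gave 56.4. The fitted log2 fold change was 5.71, the 8th highest of 23304 genes tested and the 2nd highest of 4516 annotated lncRNA genes. Leaving out sh-control replicate 1 gave 5.92, and leaving out sh-RREB1 replicate 3 gave 5.69. With a trend on GC content and length removed it was 6.01. The reads came from 1 strand: of the reads over the gene on the opposite strand there was 1 in all, in sh-RREB1 replicate 3. SIRT1, the deacetylase of its name, was measured at 105 ± 16.1 CPM in sh-control and 74.3 ± 13.0 CPM in sh-RREB1 (SD, n = 3), with the groups apart and a log2 fold change of -0.49 (SE 0.16) that did not pass (edgeR adjusted p = 0.0611).

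The neighbourhood of SIRLNT was sparse. Of 30 tested genes within 2000 kb, 1 was called higher and 0 lower, and their median log2 fold change was -0.24. By edgeR, 794 of all 23304 genes met the call in either direction, which is 3.41%, and the median over all genes was 0.01. The gene called was TCIM, a small regulator linked to Wnt signalling and the nearest tested gene on one side, at 143387 bases. Its reads were 0, 1 and 4 in sh-control against 20, 41 and 15 in sh-RREB1, or 0, 0.0368 and 0.125 CPM against 0.806, 1.57 and 1.19 CPM.

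TCIM, like SIRLNT, was near 0 in sh-control and low in sh-RREB1, and its groups did not overlap. The ratio of pooled reads was 19.7 (exact binomial 95% interval 8.07 to 62.3, counting error only). The fitted log2 fold change was 4.20 (SE 0.62, edgeR adjusted p = 0.00477). TCIM, like SIRLNT, reached the minimum read total only through its sh-RREB1 libraries (76 reads, against 5 in sh-control). The call was lost in 4 of the 6 fits that left out a library: without sh-control replicate 2 (adjusted p = 0.0367) or without sh-RREB1 replicate 1 (0.0161), 2 (0.0190) or 3 (0.0269). The nearest tested gene on the other side was SFRP1, a secreted antagonist of Wnt ligands, at 908829 bases. SFRP1 was measured at 1.39, 0.883 and 1.53 CPM in sh-control against 0.604, 0.344 and 0.397 CPM in sh-RREB1. All sh-RREB1 libraries were lower, with a log2 fold change of -1.47 (SE 0.36) that did not pass by edgeR (adjusted p = 0.0226) and was called by DESeq2 (adjusted p = 0.00877). These were the only tested genes within 1000 kb.

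**Figure D2:**
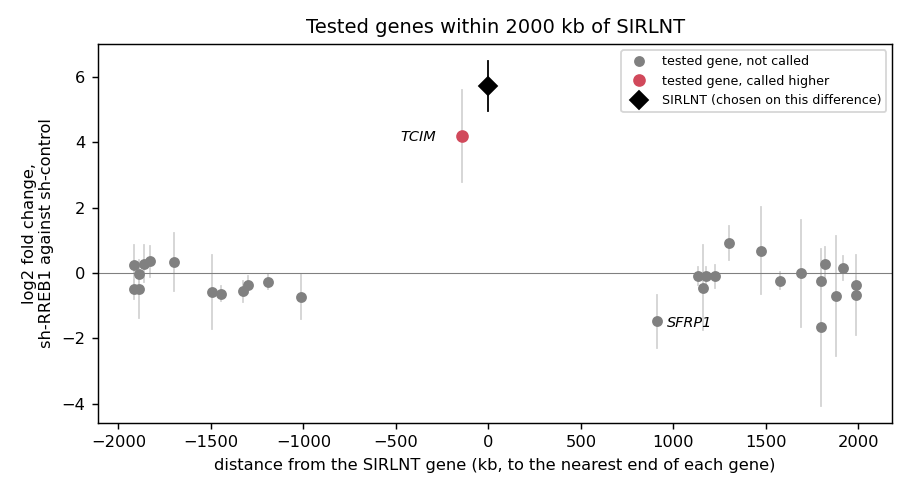
Log2 fold change, sh-RREB1 against sh-control, of the 30 tested genes within 2000 kb of SIRLNT, against distance in kb to the nearest end of each gene, with 95% confidence intervals as lines. SIRLNT (diamond, 5.71, chosen on this difference) and TCIM (4.20, called higher) stand above the rest, whose median with TCIM is -0.24.

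By the root mean square distance between centred log2 CPM over the 6 libraries, the 3 genes with a pattern most like SIRLNT among 14482 candidates with a mean of at least 1 CPM were CEND1 at 0.375, TTBK1 at 0.802 and DGKI at 0.917. CEND1, a neuronal protein tied to cell cycle exit, had 3, 1 and 1 reads in sh-control against 61, 75 and 41 in sh-RREB1. TTBK1, a kinase of tau, had 0, 1 and 2 reads and then 53, 60 and 19. DGKI, a diacylglycerol kinase, was at 1.65, 1.44 and 1.62 CPM in sh-control against 21.0, 20.7 and 20.5 CPM in sh-RREB1. The mean was taken over all 6 libraries, so CEND1 and TTBK1 became candidates only through their sh-RREB1 values. Genes of the same shape at a lower level were left out, among them TCIM, with means of 0.0538 CPM in sh-control and 1.19 CPM in sh-RREB1. The likeness was computed from the same difference that put SIRLNT on the list, so it describes these libraries and carries no test.

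Among the well-known lncRNAs, none passed the call. By edgeR, 0 of the 7 tested were called, against 3.41% of all genes and 56 of 4516 annotated lncRNA genes, or 1.24% (53 higher, 3 lower). At such shares a count of 0 among 7 genes says little about these members. TUG1, typed as protein coding in the annotation, is not among the 4516. By DESeq2 the count was also 0, against 7.07% of all genes and 2.92% of lncRNA genes. At an unadjusted p under 0.05 it was 1, H19, against 34.4% of all genes and 18.2% of lncRNA genes. With the GC and length trend removed the lncRNA calls were 80 higher and 20 lower, and with upper-quartile scaling 50 and 12. Their median log2 fold change was 0.02, against 0.10 over annotated lncRNA genes. In 6 of the 7 the groups overlapped, and in the same 6 the 95% interval of the log2 fold change lay within -1 and 1, so a 2-fold difference lay outside it. Groups did not overlap for 41.1% of all genes tested and 25.6% of lncRNA genes.

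MALAT1, on chromosome 11 from 65497640 to 65508073 on the plus strand, was measured at 2873, 1246 and 1222 CPM in sh-control against 1635, 1500 and 1671 CPM in sh-RREB1. The sh-control libraries thus spanned the sh-RREB1 values, with replicate 1 highest of all 6. The log2 fold change was -0.15 (SE 0.30, 95% interval -0.83 to 0.52, edgeR adjusted p = 0.768).

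That direction was lost with sh-control replicate 1 left out, and also with the trend on GC content and length removed (0.06, all 6 libraries kept). With sh-control replicate 1 left out, MALAT1 was at a log2 fold change of 0.35 and the remaining groups were apart (edgeR adjusted p = 0.0440), which is still short of the call. In that library MALAT1 was 0.83 log2 units above its 6-library mean, while expressed genes within 1 percentage point of its GC content of 42.0% had a median of 0.23. The 3 genes with the most similar pattern to MALAT1 were NPIPB4 at a distance of 0.0716, RFX7 at 0.0845 and MT-CYB at 0.109. RFX7, a transcription factor, was at 48.6 CPM in sh-control replicate 1 and at 22.2 to 34.0 CPM elsewhere. MT-CYB, a mitochondrial subunit of respiratory complex III, was at 389 CPM there and at 181 to 279 CPM elsewhere. NPIPB4 belongs to a family of near-identical copies, so its counts are uncertain.

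MALAT1 is thought to hold splicing factors in nuclear speckles. Of 7 speckle genes, 0 were called by edgeR and 1 by DESeq2 (U2AF2), against 3.41% and 7.07% of all genes. At an unadjusted p under 0.05 there were 2 (34.4% of all genes were under it), and the median log2 fold change was 0.05. The serine and arginine rich splicing factors overlapped between groups, with SRSF3 at 663 ± 47.6 and 629 ± 61.4 CPM and SRSF1 at 607 ± 14.6 and 628 ± 82.4 CPM in sh-control and sh-RREB1 (SD, n = 3), and SRSF7 had a mean of 403 CPM in both. SON, a scaffold of speckles, was at 446 ± 62.6 and 353 ± 53.3 CPM. U2AF2, which recognises the 3′ end of introns, was at 71.3 ± 35.6 and 165 ± 30.9 CPM with the groups apart (log2 fold change 1.21, SE 0.35, edgeR adjusted p = 0.0435), and at 0.32 once the trend on GC content was removed.

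NEAT1, on chromosome 11 from 65422774 to 65445540 on the plus strand, was at 144, 84.6 and 92.4 CPM in sh-control against 129, 86.9 and 110 CPM in sh-RREB1. Replicate 1 was the highest library in both groups and the groups overlapped. The log2 fold change was 0.02 (SE 0.22, 95% interval -0.47 to 0.52, edgeR adjusted p = 0.960).

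Of 9 paraspeckle genes, 0 were called by edgeR and by DESeq2, against 3.41% and 7.07% of all genes. At an unadjusted p under 0.05 there were 3, near the 34.4% of all genes, and the median log2 fold change was -0.03. HNRNPK was at 1356 ± 30.2 CPM in sh-control and 1079 ± 11.5 CPM in sh-RREB1 (SD, n = 3), lower in all sh-RREB1 libraries (log2 fold change -0.33, edgeR adjusted p = 0.0341), and at -0.10 with the GC trend removed. NONO was at 780 ± 84.7 in sh-RREB1 and 807 ± 81.2 CPM in sh-control, SFPQ at 587 ± 38.2 and 684 ± 42.2, and TARDBP at 124 ± 17.2 and 126 ± 10.6, in the same order.

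Next to NEAT1, a coding gene had higher values in all sh-RREB1 libraries. FRMD8, which binds the iRhom proteins and is the nearest tested gene before NEAT1 at 9249 bases, was at 5.31, 7.84 and 10.3 CPM and then 14.7, 21.7 and 16.6 CPM (log2 fold change 1.17, SE 0.26, edgeR adjusted p = 0.0168). It did not pass the edgeR call. DESeq2 called it, and with the GC trend removed its log2 fold change was 0.24. FAUP4, the nearest tested gene after NEAT1, and LINC02736, the nearest before MALAT1, were at or under 1.96 CPM.

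KCNQ1OT1, on chromosome 11 from 2597308 to 2700003 on the minus strand and antisense to KCNQ1, was at 238, 155 and 183 CPM in sh-control against 196, 188 and 179 CPM in sh-RREB1. The sh-RREB1 libraries lay within the sh-control range. The log2 fold change was -0.04 (SE 0.15, 95% interval -0.38 to 0.31, edgeR adjusted p = 0.900). Reads over the gene on the opposite strand, that of KCNQ1, amounted to 0.405% to 1.03% of the reads on both strands together.

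H19, on chromosome 11 from 1995166 to 2004552 on the minus strand, had 6, 7 and 10 reads in sh-control against 19, 19 and 13 in sh-RREB1. These are 0.261, 0.258 and 0.312 CPM against 0.766, 0.726 and 1.03 CPM. All sh-RREB1 libraries were above all sh-control libraries, and H19 was the only one of the 7 with an adjusted p under 0.05. The log2 fold change was 1.54 (SE 0.34, 95% interval 0.76 to 2.32, edgeR adjusted p = 0.0170), which missed the call.

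The GC content of the H19 exons was 61.8%, above that of 94.5% of expressed genes. Fold changes were higher at higher GC content in these libraries, from a median of -0.23 in the lowest of 10 equal bins of 14338 expressed genes to 1.11 in the highest. The 490 expressed genes within 1 percentage point of H19 were at a median of 1.04. With the trend on GC content and length removed, H19 was at 0.55 (SE 0.41, 95% interval -0.36 to 1.45, adjusted p = 0.392). In the fit without that correction, leaving out sh-control replicate 1 gave 1.46 (adjusted p = 0.0291) and leaving out sh-RREB1 replicate 3 gave 1.41 (adjusted p = 0.0659).

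**Figure D3:**
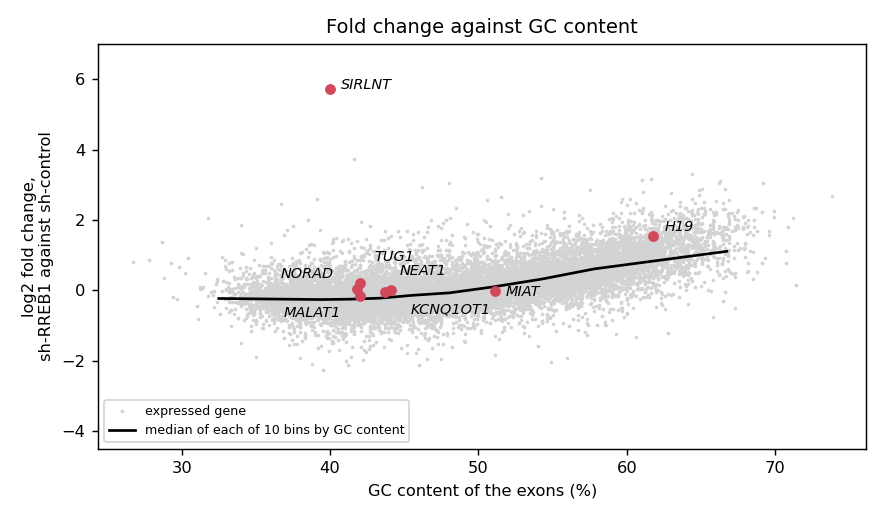
Log2 fold change, sh-RREB1 against sh-control, against GC content of the exons in percent, for genes with a mean log2 CPM above 0 (grey) and 8 lncRNA genes (red), with the line joining the medians of 10 bins by GC content. The line climbs from -0.23 to 1.11. H19 (61.8%, 1.54) lies where it is high and SIRLNT (40.0%, 5.71) where it is low.

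The genes listed for the imprinted domains of KCNQ1OT1 and H19 were GC-rich as well. Whether each of them is itself imprinted was not measured here. Of 8 listed, 7 were tested and TSPAN32 had 0 reads. By edgeR 0 were called and by DESeq2 2 (CD81 and TSSC4), against 3.41% and 7.07% of all genes. At an unadjusted p under 0.05 there were 5 (34.4% of all genes were under it), and the median log2 fold change was 1.45. CD81, a tetraspanin, was at 29.3 ± 11.7 CPM in sh-control and 80.4 ± 14.2 in sh-RREB1 (SD, n = 3; 1.45, SE 0.29, adjusted p = 0.0112), and TSSC4, a splicing cofactor, at 4.62 ± 2.87 and 14.7 ± 3.34 CPM (1.65, SE 0.46, adjusted p = 0.0366). With the trend removed CD81 was at 0.18 and TSSC4 at 0.58.

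CDKN1C, the cell cycle inhibitor that KCNQ1OT1 silences on the paternal copy and the nearest tested gene after it, had a fold change of the opposite sign. CDKN1C was measured at 2.61, 2.17 and 2.24 CPM in sh-control against 1.97, 1.57 and 1.35 CPM in sh-RREB1, lower in all 3 (log2 fold change -0.50, SE 0.22, edgeR adjusted p = 0.154). The GC content of CDKN1C was 67.3%, in the highest of the 10 bins (59.7% to 73.8%), where the median log2 fold change was 1.11. With the trend removed CDKN1C was at -2.22 and called lower (edgeR adjusted p = 0.00334), the only gene of the list called in that fit. The part of the correction itself in this call was not tested. The call was lost with sh-RREB1 replicate 3 also left out (-2.20, adjusted p = 0.0187). SLC22A18, an organic cation transporter, was at 0.365 ± 0.163 and 0.800 ± 0.137 CPM. IGF2, the growth factor whose imprinting is coupled to H19, was at 0.435, 0.515 and 0.156 CPM and then 0.604, 0.956 and 0.159 CPM, so its groups overlapped. MRPL23, a mitochondrial ribosomal protein gene 10644 bases before H19, was at 18.0 ± 10.9 and 35.1 ± 11.0 CPM (0.96, adjusted p = 0.186), and at -0.08 with the trend removed.

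MEG3, on chromosome 14 from 100779410 to 100861031 on the plus strand, had 0 reads in every library on either strand. The limit that a count of 0 allows, 3 reads, is 0.0935 to 0.238 CPM in these libraries, for counting error only. The coding genes of its imprinted domain, DLK1 and RTL1, and the lncRNA MEG9 were also at 0 reads throughout. MEG8, the next lncRNA after MEG3, had 0 to 6 reads, and DIO3, a deiodinase at the far end, had 0 to 3. Of the 5 genes listed, these last 2 were tested, with 0 called by edgeR and by DESeq2 and 0 at an unadjusted p under 0.05. Of all genes, 3.41%, 7.07% and 34.4% were, in that order.

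TUG1, on chromosome 22 from 30969245 to 30979395 on the plus strand, is typed as protein coding in the annotation used here. TUG1 was measured at 281, 208 and 198 CPM in sh-control against 270, 252 and 272 CPM in sh-RREB1, so sh-control replicate 1 was the highest library and the rest of that group the lowest. The log2 fold change was 0.21 (SE 0.14, 95% interval -0.11 to 0.53, edgeR adjusted p = 0.343). It was 0.35 without sh-control replicate 1 (adjusted p = 0.0503) and 0.41 with the trend on GC content and length removed (SE 0.10, 95% interval 0.19 to 0.62, adjusted p = 0.0113), under the 1 that a call requires.

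MORC2, a chromatin ATPase that starts 471 bases from TUG1 on the opposite strand, was at 47.7, 51.2 and 50.2 CPM in sh-control against 47.6, 67.9 and 58.5 CPM in sh-RREB1. The groups overlapped, with a log2 fold change of 0.22 (SE 0.15, adjusted p = 0.325). The strand mattered for TUG1 itself: counted without strand, 69.3% to 73.1% of its reads remained. Of its exonic bases, 810 (8.0%) are shared with annotated genes on the opposite strand, where unstranded reads become ambiguous. The part of these bases in the loss of reads was not tested. For MALAT1, 78.9% to 82.2% of the reads remained when counted without strand. The lncRNA on the other side of TUG1, ENSG00000278920, was at 1.89 ± 0.264 and 3.78 ± 0.754 CPM (1.01, SE 0.23, adjusted p = 0.0177).

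NORAD was at 366, 326 and 318 CPM in sh-control against 393, 273 and 367 CPM in sh-RREB1. The groups overlapped, with sh-RREB1 replicates 1 and 2 at the extremes. The log2 fold change was 0.03 (SE 0.14, 95% interval -0.30 to 0.36, edgeR adjusted p = 0.906), and 0.25 with the trend on GC content and length removed (adjusted p = 0.0920). Its protein partners were expressed. PUM2, a Pumilio protein, was at 158 ± 34.9 and 119 ± 5.77 CPM, the RNA-binding protein RBMX at 901 ± 41.3 and 885 ± 19.2, and KHDRBS1 at 234 ± 24.9 and 209 ± 16.0 in sh-control and sh-RREB1 (SD, n = 3). PUM2 was lower in all sh-RREB1 libraries, with a log2 fold change of -0.41 that did not pass (edgeR adjusted p = 0.0974). It was -0.16 with the trend on GC content and length removed (edgeR adjusted p = 0.287). Of 4 partners listed, 0 were called by edgeR and by DESeq2, against 3.41% and 7.07% of all genes, and 1 had an unadjusted p under 0.05 (34.4% of all genes did). The tested neighbours of NORAD, CNBD2 at 14918 bases and ENSG00000277235 at 13225 bases, had log2 fold changes of 0.29 and 0.58 with groups that overlapped.

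MIAT, on chromosome 22 from 26646411 to 26676475 on the plus strand, was at 4.70, 4.67 and 4.21 CPM in sh-control against 3.59, 5.05 and 4.92 CPM in sh-RREB1. The group means were 4.53 ± 0.277 and 4.52 ± 0.808 CPM (SD, n = 3), and the log2 fold change was -0.01 (SE 0.20, 95% interval -0.45 to 0.44, edgeR adjusted p = 0.985). Splicing factors that bind its repeats were measured too. QKI was at 229 ± 41.7 and 283 ± 80.8 CPM, SF1 at 63.4 ± 10.3 and 68.6 ± 2.62, and CELF3, a neuronal factor, at 0.122 ± 0.0104 and 0.326 ± 0.117. Of these 3, 0 were called by edgeR and by DESeq2, against 3.41% and 7.07% of all genes, and the median log2 fold change was 0.30. At an unadjusted p under 0.05 there was 1, CELF3 (34.4% of all genes were under it). CELF3 had only 3, 3 and 4 reads in sh-control against 7, 12 and 3 in sh-RREB1.

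**Figure D4:**
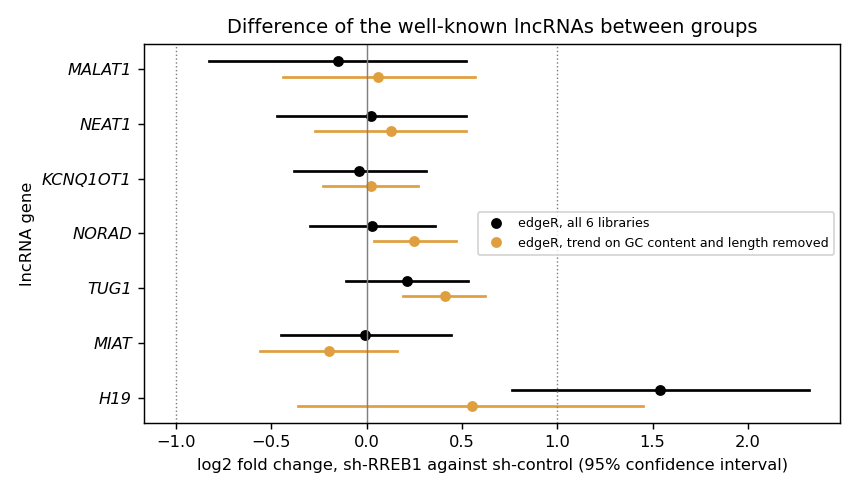
Log2 fold change of the 7 tested well-known lncRNAs, sh-RREB1 against sh-control, with 95% confidence intervals as lines, from the fit over all genes (black) and with a trend on GC content and length removed (orange). Dotted lines mark -1 and 1. H19 moves from 1.54 to 0.55, and the other 6 intervals lie within the dotted lines in both fits.

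Set beside the genes of like GC content, the members' departures from their 6-library means differed in size. TUG1 and MIAT stayed within 0.32 log2 units of their means, and NORAD within 0.31. MALAT1, NEAT1, KCNQ1OT1 and TUG1 were all highest in sh-control replicate 1, by 0.83, 0.45, 0.34 and 0.20, where genes near them in GC content had medians of 0.16 to 0.23. H19 and SIRLNT were the members whose groups did not overlap, as for 41.1% of all genes tested and 25.6% of lncRNA genes. SIRLNT was listed for that difference. By the same distance as above, the closest pair of members was KCNQ1OT1 and TUG1 at 0.16. The pairs with SIRLNT were the farthest apart, which follows from how SIRLNT was chosen.

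**Figure D5:**
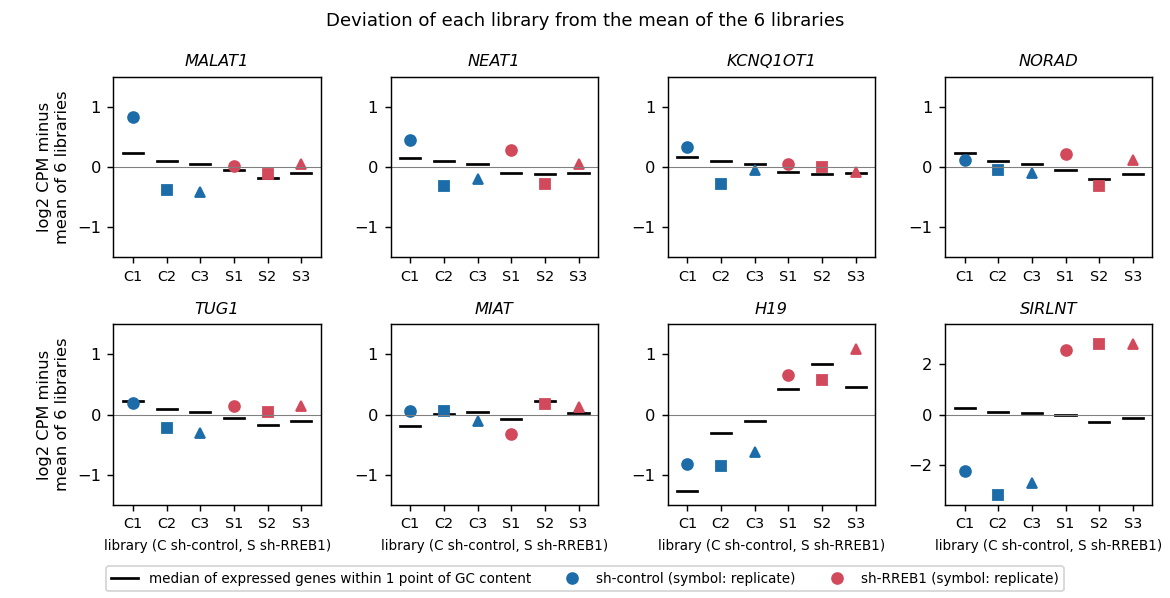
Log2 CPM of each library minus the mean of the 6 libraries for 8 lncRNA genes (blue sh-control, red sh-RREB1), with black bars for the median of expressed genes within 1 percentage point of the same GC content; the SIRLNT panel has a wider axis. The bars of H19 climb from -1.27 in sh-control replicate 1 to 0.84 in sh-RREB1 replicate 2, and those of SIRLNT stay between -0.28 and 0.25 while its points run from -3.23 to 2.83.

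Of 25 further well-known lncRNAs listed for comparison, 22 were tested. Of these, edgeR called 1 higher and 0 lower, against 3.41% of all genes and 1.24% of annotated lncRNA genes. DESeq2 called 2, against 7.07% of all genes and 2.92% of lncRNA genes. An unadjusted p under 0.05 was found for 9 (34.4% of all genes and 18.2% of lncRNA genes), and the median log2 fold change was -0.10. The one called was FENDRR, a lncRNA of lateral mesoderm next to FOXF1, at 4.35, 4.38 and 4.15 CPM in sh-control against 12.7, 13.7 and 12.1 CPM in sh-RREB1. Its groups were far apart relative to their spread, with a log2 fold change of 1.58 (SE 0.16, edgeR adjusted p = 0.00177) and 1.60 with the GC trend removed. The call was lost without sh-control replicate 2 (adjusted p = 0.0244) and without sh-RREB1 replicate 1 (0.0115) or 3 (0.0187).

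NRAV, the other gene that DESeq2 called, was at 14.8 ± 1.74 CPM in sh-control and 6.98 ± 1.67 in sh-RREB1 (SD, n = 3; -1.08, SE 0.21, edgeR adjusted p = 0.0103). Across 18 alternatives NRAV passed the call in 9. Among the 4 of the list with the highest CPM, GAS5 and MIR17HG overlapped between groups, and OIP5-AS1 and JPX were lower in all sh-RREB1 libraries. GAS5, a host of small nucleolar RNAs, was at 290 ± 17.6 and 271 ± 18.1 CPM, OIP5-AS1 at 197 ± 21.7 and 150 ± 28.2, JPX at 106 ± 11.0 and 73.9 ± 14.5, and MIR17HG, the host of the miR-17 cluster, at 68.8 ± 8.53 and 77.9 ± 33.4. None of these 4 passed the call, with edgeR adjusted p from 0.0506 to 0.715. UCA1 had 0 reads in all libraries.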

How the data were processed

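Per the labels, RNA of HEK293T cells was sequenced from stranded total RNA libraries, and the authors aligned reads with STAR to hg38. The deposited values are raw counts for 58037 identifiers, unstranded and for each strand, and those for the sense strand entered every fit. Reads with no feature (8853232 to 13201426), ambiguous reads and multimapping reads were left out, as was the authors' merged table. Symbols, positions, lengths and GC content came from Gencode release 44 (GRCh38), later than the release counted on, so lengths can differ. Where identifiers shared a symbol, the one with most reads was kept.

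CPM were scaled by TMM. Genes with at least 10 reads in total were tested with edgeR 4.0.16 (R 4.3.3, quasi-likelihood test, prior count 0.5), with Benjamini-Hochberg adjustment over all 23304. A call required adjusted p under 0.01 and absolute log2 fold change over 1, the thresholds of the study's methods. Alternatives were DESeq2 1.42.0, other filters and scalings, each replicate left out, a replicate block, and offsets from a spline (5 degrees of freedom) on GC content and length. Genes within 1 percentage point of GC content were compared after the data were seen. The fit was tested on simulated data.

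The members and lists were chosen with earlier results of these data known. Genes named were the members, RREB1, the nearest tested gene on each side, the 4 most abundant and all called genes of each list, and the 3 genes most like SIRLNT and MALAT1. U2AF2, TSPAN32, PAX2, PAX8, CD3E, COL1A1, UCA1, NRAV and MEG9 were named after their values were seen. Some genes that the rule names are not reported here. No pair of libraries agreed within sampling noise (chi-square per degree of freedom at least 4.74). Same-numbered libraries deviated together with correlations of 0.50, 0.43 and -0.28, so the numbers were not taken as pairs.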

Additional observations from a re-analysis of the deposited data

How the results depend on the processing

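The number of well-known lncRNAs called stayed at 0 of 7 under the alternatives run, except at an adjusted p under 0.05 alone, where it was 1 (H19). That threshold called 4567 genes, 341 of them lncRNA genes. DESeq2 called 1647 and 132, and a minimum of 1 read 1801 and 151. Leaving out a replicate gave 8 to 1117 genes and 1 to 70 lncRNA genes: the lowest came without sh-RREB1 replicate 3 (8 and 1), then sh-control replicate 2 (9 and 1), sh-RREB1 replicate 1 (25 and 2), sh-RREB1 replicate 2 (136 and 12), sh-control replicate 3 (383 and 13) and sh-control replicate 1 (1117 and 70). The cause was not tested. With the GC and length trend removed, 707 genes and 100 lncRNA genes were called, and with the replicate block besides 871 and 139. With the trend removed, no block and sh-RREB1 replicate 3 left out, an alternative chosen after seeing the data, they were 459 and 45.

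The replicate block alone gave 1684 genes and 121 lncRNA genes and called 0 of the well-known lncRNAs, and it put U2AF2, FRMD8, CD81, TSSC4 and NRAV past the call. The numbers are shared labels and not a known pairing.

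SIRLNT ranged from 5.43 to 6.03 on the log2 scale over 18 alternatives. H19 stayed above 0 in all 18 (0.37 to 1.64, adjusted p 0.0117 to 0.641), and so did TUG1 (0.09 to 0.41, adjusted p 0.00180 to 0.746). The other members lay near 0 and changed sign. MALAT1 was 0.06 with the trend removed, 0.16 with the block besides and 0.03 without sh-RREB1 replicate 3 in that fit, and -0.39 to 0.35 over replicates left out. KCNQ1OT1 was 0.02, 0.02 and 0.05 in those 3 fits, 0.02 with filterByExpr, 0.04 by library totals, and -0.19 to 0.12 over replicates left out. NEAT1 was -0.08 and NORAD -0.06 by upper-quartile scaling, and -0.14 to 0.27 and -0.07 to 0.17 over replicates left out. MIAT was 0.03 with both strands counted, 0.05 with filterByExpr, 0.07 by library totals, and -0.11 to 0.14 over replicates left out. Of the other genes tested by name, MRPL23 changed sign, to -0.08 with the trend removed, -0.03 with the block besides and -0.10 without sh-RREB1 replicate 3 in that fit. Depth limited H19, at 6 to 19 reads a library, and SIRLNT in sh-control, at 1 or 2.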
